A study of Boehmeria nivea with 2 samples.

Results

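Basic helix-loop-helix (bHLH) transcription factors of ramie leaves were compared between plants challenged with larvae of the ramie moth (RM) and control plants. A unigene, an assembled sequence standing for a gene or a piece of one, was taken as a bHLH member when its Swiss-Prot hit was named bHLH, MYC, ATR2, ICE1, SPEECHLESS or UNE, and names with PIF were dropped. The rule found 84 of 46,533 unigenes (0.181%), which carried 54 homolog names. Of these names, 31 had 1 unigene, 19 had 2, 2 had 3, bHLH30 had 4 and MYC4 had 5, and no unigene was named SPEECHLESS. All 84 Swiss-Prot hits were to Arabidopsis thaliana, and every best hit in the Nr protein database was to a seed plant, with Prunus (34), Theobroma (16) and Fragaria (12) leading.

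The plants were potted cuttings of the cultivar Chuanzhu 8, aged 30 days. In the challenged group (CH), 2 larvae fasted for 12 h were placed on leaf 4 from the shoot apex of each plant. In the control group (CK), called mock-challenged in the sample title and unchallenged in the protocol, plants carried no larvae. The top 2 undamaged leaves were taken at 12, 24, 48 and 72 h from 5 plants per time point, and the RNA of all times was mixed into 1 library per group, so the library holds no information on any single time or plant.

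The bHLH proteins bind DNA as dimers through a basic region, mostly at E-box and G-box motifs, while the helix-loop-helix joins the partners. In Arabidopsis leaves MYC2, MYC3 and MYC4 switch on jasmonate defense genes once the JAZ repressors that hold them are degraded through the receptor COI1. The JAZ repressors are a part of the TIFY proteins. Other members set stomatal development, iron uptake, blue-light control of flowering and cell elongation, and HLH proteins with a weak or missing basic region act mainly as dimer partners.

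Counted reads were 26,938,918 in CH and 17,800,062 in CK. Each unigene with at least 1 read was tested with the 2-sided Audic-Claverie test on rounded expected counts with Benjamini-Hochberg adjustment. It was called at an adjusted p below 0.01 with a 2-fold difference in RPKM. RPKM is reads per kilobase of effective unigene length and per 1,000,000 counted reads. Since each group had 1 library and no replicate check was possible, the test speaks of these libraries and not of the conditions. Ratios of reads per library total are given with 95% Clopper-Pearson intervals, which hold counting error only. In whole-leaf RNA, fewer cells of a type and less RNA per cell cannot be told apart. The leaf identity of both libraries was checked with 75 unigenes for the Rubisco small subunit, Rubisco activase and chlorophyll a-b binding proteins, which took 3.04% of reads in CH and 7.57% in CK, with 0 called higher and 18 lower in CH (median log2 ratio −0.71). The part of that difference in the bHLH values was not tested.

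Most bHLH unigenes were well covered. In all, 71 of 84 had at least 10 reads in CH and CK together (84.5%, against 50.8% of all unigenes), and 27 had at least 1000. The other 13 members had under 10 reads, all were shorter than 500 bp, and 1 of them, a bHLH62 unigene, had 0 reads in both libraries. The median RPKM over the 84 members was 5.89 in CH and 7.55 in CK. Together the members held 71,320 reads in CH (0.265% of the library) and 52,907 in CK (0.297%), a CH/CK ratio of 0.891 (95% interval 0.881 to 0.901).

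The most abundant member decided that sum. Unigene comp37869_c3, named bHLH149, had 8602 reads in CH and 11,749 in CK, or 139 RPKM in CH and 310 RPKM in CK, which was 12.1% of all member reads in CH and 22.2% in CK. Without it, the summed ratio was 1.01 (0.994 to 1.02). Its annotation was mixed. The best Nr hit was a hypothetical Prunus protein, but 43 of the 84 members had a hypothetical, predicted, unnamed or uncharacterized Nr protein. None of the 28 GO terms of comp37869_c3 named DNA binding, and 5 named the chloroplast or thylakoid. Among the 81 members with GO terms, 72 had a term for transcription or DNA binding. The Trinity component that holds it has 7 unigenes, among them others named for the chromatin factor PICKLE and the aquaporin PIP2-8. Its reading as a bHLH factor is therefore uncertain, and the sums over all members and over its role group are also given without it.

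Of the 83 members tested, 4 were higher in CH (4.82%, against 2.48% of all 43,302 unigenes tested) and 11 were lower in CH (13.3%, against 4.28%). The members called higher were ATR2, bHLH120, a bHLH30 and bHLH51. The members called lower were bHLH93, a bHLH148, bHLH57, both bHLH149, a bHLH78, bHLH62, a bHLH135, bHLH74, bHLH71 and bHLH35. Since members had more reads than most unigenes, the shares were also read among unigenes with at least 50 reads, where 2 of 59 members were higher (3.39%, against 5.11% of all such unigenes) and 11 of 59 were lower (18.6%, against 9.26%). The plot of RPKM in both libraries shows that 3 of the 4 higher members had at most 3 reads in CK, whereas the lower members ran from shallow ones to the most abundant of all. If a coefficient of variation of 0.4 between libraries was assumed (edgeR's exact test), 1 member was higher, ATR2, and 0 were lower, while over all unigenes tested 134 were higher (0.309%) and 52 were lower (0.12%). By the 2-fold difference alone, 5 members were higher (8.06% of all unigenes tested were) and 19 were lower (14.7% of all were). The 9 that passed 2-fold without a call had at most 46 reads each.

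**Figure D1:**
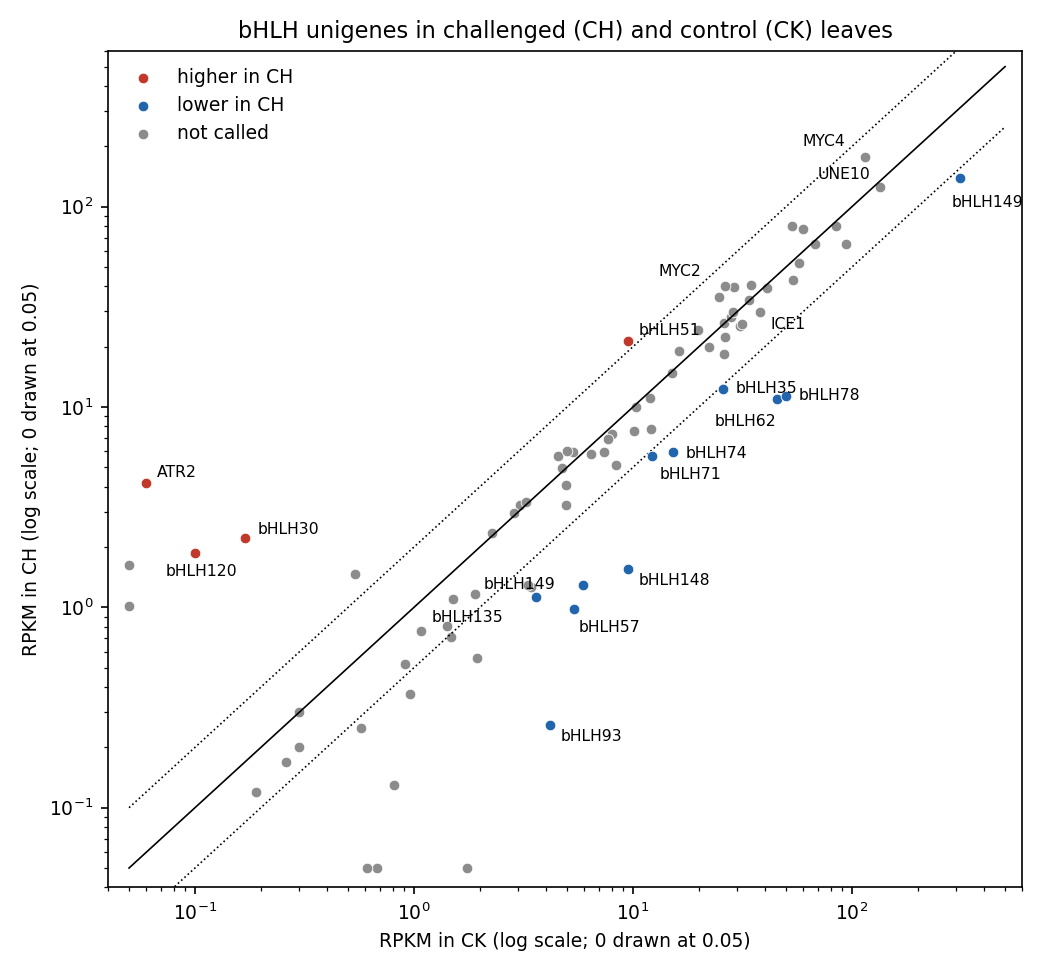
Each point is a bHLH unigene, with RPKM in CK on the x axis and RPKM in CH on the y axis, both on log scales with 0 drawn at 0.05; the solid line marks equal RPKM and the dotted lines a 2-fold difference. The 4 members higher in CH (red) include 3 with at most 3 reads in CK, and the 11 lower members (blue) run from bHLH93 at 0.26 RPKM in CH and 4.17 in CK to bHLH149 at 139 RPKM in CH and 310 in CK.

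Most well-measured bHLH genes differed little between the libraries. Over the 71 members with at least 10 reads the median log2(CH/CK) of RPKM was −0.13 (quartiles −0.71 and 0.07), against −0.02 over all unigenes with that many reads (quartiles −0.51 and 0.40). Of these members, 45 lay below 0 (63.4%, against 51.0% of all such unigenes). Only 3 of the 27 members with at least 1000 reads were called, bHLH78, bHLH62 and the abundant bHLH149, and the other 24 ran from −0.53 (bHLH143) to 0.64 (MYC4). The curves of cumulative share follow this, with the member curve to the left of the curve of all unigenes over most of the range.

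**Figure D2:**
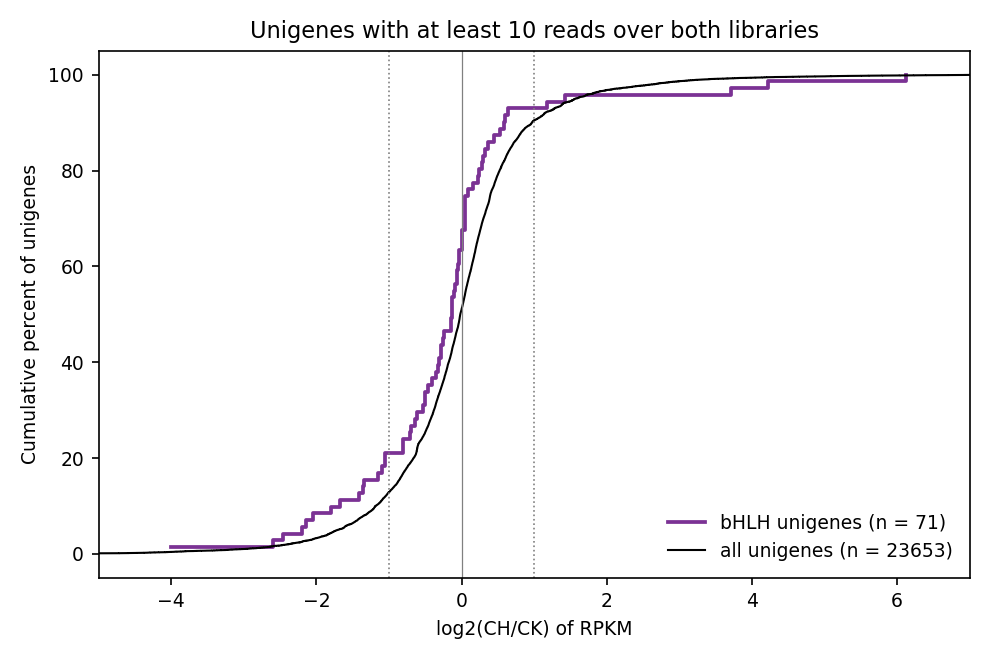
The x axis is log2(CH/CK) of RPKM and the y axis the cumulative percent of unigenes with at least 10 reads, for 71 bHLH unigenes (purple) and all 23,653 unigenes (black), with dotted lines at 2-fold. At 0 on the x axis 63.4% of bHLH unigenes and 51.0% of all unigenes have been passed.

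The jasmonate group held 12 unigenes, of which ATR2 was higher in CH and none was lower, against 2.48% and 4.28% of all unigenes tested. ATR2, the Arabidopsis name of MYC3, had 4.17 RPKM in CH and 0.06 RPKM in CK, a ratio of reads of 68.7 whose interval ran from 12.1 to 2740 because of the single CK read (adjusted p = 1.62e-20, Audic-Claverie test with Benjamini-Hochberg adjustment). The main MYC4 unigene, comp31632_c0, was the most abundant member in CH. It had 11,733 reads in CH and 4979 in CK, or 177 RPKM in CH and 114 RPKM in CK, a ratio of 1.56 (1.51 to 1.61) that lay under the 2-fold threshold. Thus, per length, its level in CH was far above that of ATR2, and the ratio between the libraries was smaller.

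By Swiss-Prot name MYC2, the best known regulator of the family, was represented by a fragment of 314 bp. It had 40.1 RPKM in CH and 26.4 RPKM in CK. The ratio of reads was 1.55 (1.23 to 1.97), likewise under 2-fold. The other 4 MYC4 unigenes were shallow, with 47 reads in CH and 29 in CK for comp25043_c0, 0 in CH and 6 in CK for comp695810_c0, 0 in CH and 3 in CK for comp8319_c0, and 4 in CH and 0 in CK for comp700_c1. None of them was called, and at a floor of 3 reads a difference in the last pair was not detectable at this depth. The last 3 were 286, 339 and 235 bp long, and whether they are pieces of the same gene was not tested. The best Nr hit of comp8319_c0 was named MYC2-like. The interval of comp695810_c0 (0 to 0.561) lay apart from that of comp31632_c0 (1.51 to 1.61).

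Members named for JAM-type factors, which compete with MYC2 and repress jasmonate responses in Arabidopsis, had ratios near 1 where they were deep. For bHLH13 there were 2201 reads in CH and 1401 in CK (log2 0.05), and for the deeper bHLH3 unigene 985 in CH and 787 in CK (log2 −0.28). The unigene bHLH14 comp524_c0 had 7 reads in CH and 16 in CK. For bHLH14 comp19658_c0 there were 7 in CH and 0 in CK, and neither was called. These names follow Swiss-Prot, whereas the best Nr hits of bHLH13 and of bHLH14 comp19658_c0 were named Myc2 and lMYC4. Whether each is a JAM-type or a MYC-type factor is thus uncertain. Summed over the group, the level was 574 CPM (reads per 1,000,000 counted reads of the library) in CH and 416 CPM in CK, a ratio of 1.38 (1.34 to 1.42). Without MYC4 comp31632_c0 the ratio was 1.01 (0.96 to 1.06).

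Of 17 TIFY, COI1 and Ninja-family unigenes, 3 were higher and 1 was lower in CH, against 2.48% and 4.28% of all tested. Those shares were 5.11% and 9.26% over all unigenes with at least 50 reads. The list takes in partners of the MYC factors but also TIFY names that are not JAZ repressors, such as TIFY 8. The JAZ repressor TIFY 10A comp35330_c0 had 4203 reads in CH and 828 in CK, a ratio of 3.35 (3.11 to 3.62), while the deeper TIFY 10A unigene, comp36624_c1, had 30,338 in CH and 18,611 in CK, a ratio of 1.08 (1.06 to 1.10), and was not called. The JAZ genes TIFY 9 (95 reads in CH and 14 in CK) and TIFY 5A (31 in CH and 5 in CK) were also higher, while TIFY 8 was lower with 321 in CH and 439 in CK. The deeper COI1 unigene, the jasmonate receptor, had 7696 reads in CH and 6282 in CK and was not called. The median log2 ratio of the list was 0.26 over its members with at least 10 reads.

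**Figure D3:**
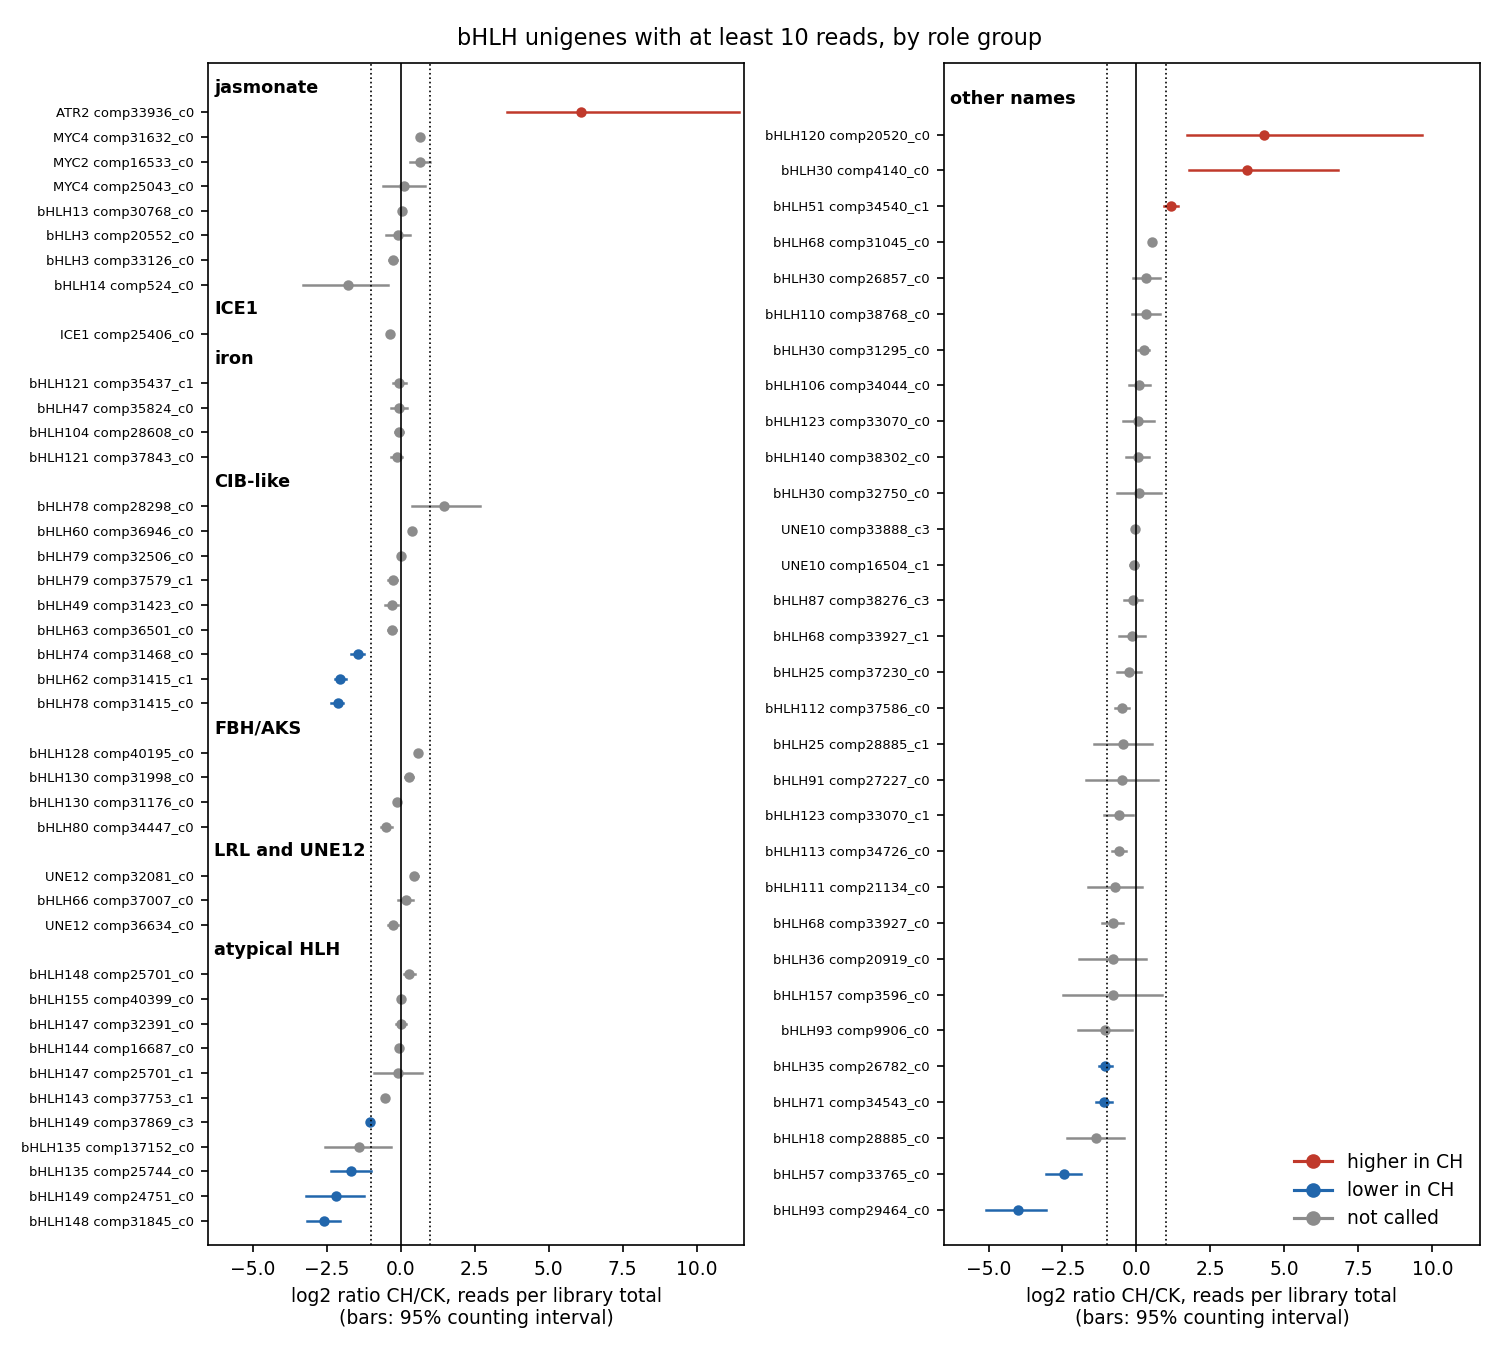
Points give log2(CH/CK) of reads per library total for the 71 bHLH unigenes with at least 10 reads, with 95% counting intervals as bars, by role group in the left panel and for all other names in the right panel; dotted lines mark 2-fold. Narrow bars close to 0 dominate, while ATR2, bHLH120 and bHLH30 have wide bars to the right and bHLH93, bHLH148 and bHLH57 lie to the left.

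Among the 12 CIB-like unigenes, 3 were lower and none was higher in CH, against 4.28% and 2.48% of all unigenes tested. Those shares were 9.26% and 5.11% over all unigenes with at least 50 reads. The Arabidopsis protein CIB1 (bHLH63) binds the blue-light receptor CRY2 and promotes flowering, and bHLH62, bHLH74 and bHLH78 are its near relatives. The bHLH78 unigene comp31415_c0 had 271 reads in CH and 789 in CK (11.3 RPKM in CH and 50.2 in CK), 4.41-fold lower in CH (3.83 to 5.08; adjusted p = 3.3e-114, Audic-Claverie). The bHLH62 unigene comp31415_c1 had 303 reads in CH and 827 in CK (10.9 RPKM in CH and 45.3 in CK), 4.13-fold lower (3.62 to 4.73). Both come from 1 Trinity component, so they may be pieces of a single gene, and the count of lower members holds both.

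For bHLH74, 259 reads in CH and 467 in CK (5.98 RPKM in CH and 15.2 in CK) gave 2.73-fold lower (2.34 to 3.19). The rest of the group was not called. CIB1 itself, bHLH63 comp36501_c0, had 1006 reads in CH and 826 in CK, and bHLH60, among the 6 most abundant members, had 3647 in CH and 1873 in CK (77.4 RPKM in CH and 59.9 in CK, log2 0.37). A further bHLH78 unigene, comp28298_c0, stood the other way with 37 reads in CH and 9 in CK, a ratio of 2.72 (1.29 to 6.4) with an adjusted p of 0.0263 by the Audic-Claverie test, so it was not called. The sum of the group was 312 CPM in CH and 386 CPM in CK (ratio 0.809, 0.783 to 0.835), and 291 in CH and 295 in CK without the component of bHLH78 and bHLH62 (ratio 0.985, 0.951 to 1.02).

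The atypical HLH group, 11 unigenes, had 4 lower and none higher in CH, against 4.28% and 2.48% of all unigenes tested. Those shares were 9.26% and 5.11% over all unigenes with at least 50 reads. The lower members of the group include comp37869_c3, whose reading as a bHLH factor is uncertain. The group joins proteins that act mostly as dimer partners. These are AIF-type factors (bHLH147, bHLH148, bHLH149), which restrain brassinosteroid-driven elongation in Arabidopsis, and the growth-promoting PRE-type bHLH135. The SAC51-like bHLH143 and bHLH144, and bHLH155, complete the group. A bHLH148 unigene, comp31845_c0, had 37 reads in CH and 148 in CK (1.56 RPKM in CH and 9.48 in CK), 6.05-fold lower (4.20 to 8.93). The remaining bHLH148 unigene, comp25701_c0, was deeper, with 670 reads in CH and 362 in CK (log2 0.24), and was not called. So the name bHLH148 summed to 707 reads in CH and 510 in CK, a ratio of 0.916 (0.816 to 1.03).

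The shallow bHLH149 unigene, comp24751_c0, had 13 reads in CH and 39 in CK, 4.54-fold lower (2.37 to 9.27), and the abundant one described above was 2.07-fold lower (2.01 to 2.13), just past the threshold. The assembled length of the abundant one averaged 2382 bp in CH and 2223 bp in CK, so its log2 ratio was −1.15 from RPKM and −1.05 from reads alone. For bHLH135, comp25744_c0 had 29 reads in CH and 61 in CK, 3.18-fold lower (2.01 to 5.14), while comp137152_c0 had 12 in CH and 21 in CK with an adjusted p of 0.026 (Audic-Claverie), not called. Both AIF-type and PRE-type names were thus among the lower calls, but the AIF-type name bHLH147 had no call. Its deeper unigene, comp32391_c0, had 822 reads in CH and 540 in CK (log2 0.0). For bHLH147 comp25701_c1 there were 34 in CH and 24 in CK (log2 −0.13).

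The abundant SAC51-like members were not called. There were 4868 reads in CH and 4632 in CK for bHLH143 (65.1 RPKM in CH and 93.9 in CK, log2 −0.53), and 4330 in CH and 2986 in CK for bHLH144 (80.4 RPKM in CH and 84.2 in CK, log2 −0.07). The bHLH155 unigene had 2817 reads in CH and 1842 in CK (log2 0.01) and was not called. Summed over the group the ratio was 0.656 (0.644 to 0.668), or 0.845 (0.824 to 0.867) without comp37869_c3. The bars of summed reads show how much of this group rests on that unigene.

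**Figure D4:**
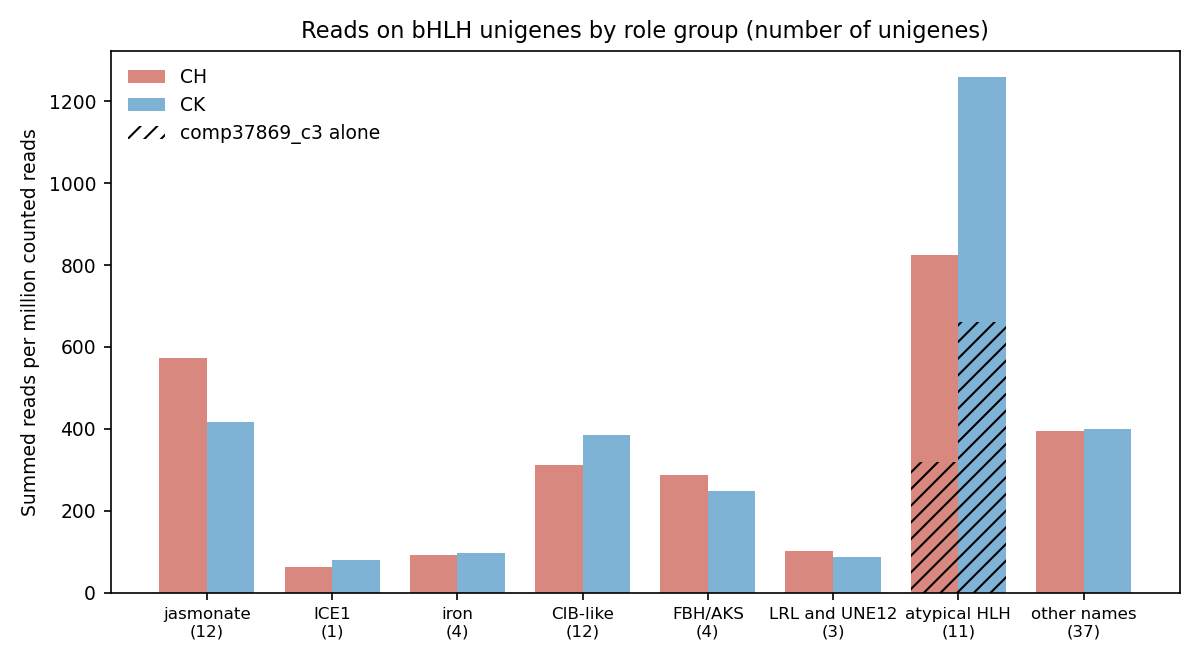
Bars give the summed CPM of each role group in CH (left bar) and CK (right bar), with the number of unigenes in parentheses and comp37869_c3 hatched. The atypical HLH bars reach 825 CPM in CH and 1260 in CK, of which comp37869_c3 alone is 319 in CH and 660 in CK, and the jasmonate bars reach 574 in CH and 416 in CK.

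ICE1, which in Arabidopsis activates cold-response genes and pairs with SPEECHLESS, MUTE and FAMA in the stomatal lineage, was not called. It had 1695 reads in CH and 1432 in CK (29.71 RPKM in CH and 37.96 in CK), 1.28-fold lower (1.19 to 1.37). Calls did occur in bHLH71 and bHLH93, whose Arabidopsis namesakes bind FAMA. The bHLH93 unigene comp29464_c0 had 0.26 RPKM in CH, from 10 reads, and 4.17 RPKM in CK, 15.9-fold lower (8.31 to 34.1), and the remaining bHLH93 unigene, comp9906_c0, had 19 in CH and 26 in CK, not called. For bHLH71 the reads were 209 in CH and 295 in CK (5.67 RPKM in CH and 12.2 in CK), 2.14-fold lower with an interval, 1.78 to 2.56, that spans 2-fold.

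Among 21 unigenes named for other stomatal-lineage proteins, 0 were higher and 2 were lower in CH, with a median log2 ratio of −0.32. Over all unigenes, 4.28% of those tested and 9.26% of those with at least 50 reads were lower. EPFL9 (stomagen), a peptide that promotes stomata, had 48 reads in CH and 177 in CK, 5.58-fold lower. The receptor kinase ERECTA comp38089_c0 had 269 in CH and 501 in CK, 2.82-fold lower. Others stood the other way without a call, such as the kinase YODA comp32802_c0 (566 reads in CH and 201 in CK, log2 0.89) and YODA comp34382_c0 (log2 0.48). The deepest YODA unigene, comp32642_c1, had a log2 ratio of −0.02. Of 11 unigenes named for DREB1, HOS1 or cold-regulated proteins, 0 were higher and 2 lower, against 2.48% and 4.28% of all tested. This list was drawn by name, and whether its members are ICE1 targets was not tested. The lower ones were DREB1F (38 reads in CH and 144 in CK) and DREB1D comp0_c1 (1 read in CH and 9 in CK). DREB1A had 1 read in each library. The median of that list was −0.16.

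The other 3 members higher in CH belonged to no role group. The bHLH51 unigene was the deepest of them, with 614 reads in CH and 181 in CK (21.4 RPKM in CH and 9.50 in CK), a ratio of 2.24 (1.90 to 2.66; adjusted p = 6.49e-23, Audic-Claverie). For bHLH30 comp4140_c0 there were 40 reads in CH and 2 in CK, a ratio of 13.2 (3.43 to 113), and for bHLH120 there were 30 in CH and 1 in CK, a ratio of 19.8 (3.30 to 809). Both calls rest on very few CK reads, as did that of ATR2.

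The name bHLH30 was also carried by 3 unigenes that were not called, which had 718 reads in CH and 403 in CK (comp31295_c0), 120 in CH and 63 in CK (comp26857_c0) and 43 in CH and 27 in CK (comp32750_c0). Their log2 ratios were 0.23, 0.32 and 0.04. Over all 4 unigenes bHLH30 summed to 921 reads in CH and 495 in CK, a ratio of 1.23 (1.10 to 1.37), so the sum by name lay under 2-fold.

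Of the ungrouped lower members not yet given, bHLH57 had 33 reads in CH and 119 in CK (0.98 RPKM in CH and 5.38 in CK), 5.46-fold lower (3.68 to 8.29). The bHLH35 unigene had 284 reads in CH and 389 in CK (12.4 RPKM in CH and 25.8 in CK), 2.07-fold lower (1.77 to 2.42), so its interval also spans the threshold. The name bHLH68, with 3 unigenes, had no call: 2699 reads in CH and 1237 in CK for comp31045_c0 (log2 0.53), 5.12 RPKM in CH and 8.39 RPKM in CK for comp33927_c0 (log2 −0.71) and 107 reads in CH and 78 in CK for comp33927_c1 (log2 −0.15). The 3 bHLH25 unigenes, named for a factor that jasmonate induces in Arabidopsis roots, had 118 reads in CH and 93 in CK, 21 in CH and 19 in CK, and 2 in CH and 6 in CK, again with no call.

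The iron group, restricted to names within the rule, lay close to equality. Its 4 unigenes, named for POPEYE (bHLH47), bHLH104 and URI (bHLH121), which steer the iron-deficiency response in Arabidopsis, had log2 ratios between −0.15 and −0.03. Their sum was 92.1 CPM in CH and 97.2 in CK, a ratio of 0.947 (0.890 to 1.01). Further bHLH names tied to iron, ORG2 and ILR3, fall outside the rule and are given below with their calls. Of 31 unigenes for other iron genes, 0 were higher and 4 were lower in CH (median −0.21), against 2.48% and 4.28% of all tested. Among all unigenes with at least 50 reads, 9.26% were lower. The chloroplast ferric reductase FRO7 had 410 reads in CH and 1809 in CK, 6.68-fold lower. Nicotianamine synthase had 171 in CH and 364 in CK, 3.22-fold lower. The deepest unigene of the list, Ferritin-3 comp39514_c0, was not called, with 7356 in CH and 5799 in CK (log2 −0.26). Nor was Fe(2+) transport protein 3, with 2861 in CH and 1535 in CK (log2 0.30).

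FBH/AKS factors, which activate the flowering gene CONSTANS and stomatal opening in Arabidopsis, had no call among 4 unigenes. The deepest, bHLH128, had 3593 reads in CH and 1576 in CK (80.2 RPKM in CH and 53.4 in CK, log2 0.59), and bHLH80 had 496 in CH and 463 in CK (log2 −0.50). Their sum gave a ratio of 1.16 (1.11 to 1.2). Of 28 unigenes named CONSTANS or CONSTANS-LIKE, 2 were higher and 5 were lower, against 2.48% and 4.28% of all unigenes tested. Their median was −0.52. Among all unigenes with at least 50 reads, 5.11% were higher and 9.26% lower. CONSTANS itself had 292 reads in CH and 849 in CK, 4.4-fold lower (adjusted p = 1.05e-122, Audic-Claverie). Both higher unigenes were named CONSTANS-LIKE 15, with 628 reads in CH and 202 in CK for comp31034_c0. The deepest of the list, CONSTANS-LIKE 11, was not called, with 7329 in CH and 4955 in CK (log2 −0.04).

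The UNE names, given in Arabidopsis for genes found in a screen for unfertilized embryo sacs, had no call. UNE10 comp16504_c1, one of the 6 highest in mean RPKM, had 1214 reads in CH and 846 in CK (126 RPKM in CH and 134 in CK), and UNE10 comp33888_c3 had 2754 in CH and 1878 in CK (65.5 RPKM in CH and 67.8 in CK). For UNE12 the reads were 1734 in CH and 834 in CK (comp32081_c0, log2 0.45) and 648 in CH and 509 in CK (comp36634_c0, log2 −0.24). The UNE10 unigenes lay within 0.1 of equality on the log2 scale, whereas the UNE12 unigenes stood on either side of it with intervals that did not overlap.

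Compared by name rather than by unigene, 51 homologs had at least 10 reads. Summed reads differed at least 2-fold, with an interval off 1, for 3 names higher in CH (ATR2, bHLH120 and bHLH51) and 10 lower in CH (bHLH18, bHLH35, bHLH57, bHLH62, bHLH71, bHLH74, bHLH78, bHLH93, bHLH135 and bHLH149), and 30 names lay within 1.5-fold. These were 5.88% and 19.6% of the 51 names, against 4.62% higher and 9% lower among all 7313 Swiss-Prot names with at least 10 reads, by the same criterion without adjustment for the number of names. Of these names bHLH18 was carried by a unigene with 16 reads in CH and 27 in CK that was not called on its own. The names bHLH62 and bHLH78 rest mostly on unigenes of the same Trinity component, which may be pieces of a single gene. The name bHLH149 holds comp37869_c3, and its other unigene, comp24751_c0, was by itself 4.54-fold lower (2.37 to 9.27). Among 17 names with at least 2 unigenes of 10 or more reads, the intervals of the highest and lowest unigene were apart for 9 (52.9%) and overlapped for 8, and they were apart for 56.8% of all 2482 Swiss-Prot names with such unigenes. The widest gaps were those of bHLH30 (3.66 on the log2 scale), bHLH78 (3.58), bHLH93 (2.95) and bHLH148 (2.84), yet no name was called in both directions.

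Other bHLH proteins lie outside the naming rule, and 26 unigenes with such names (PIF, FAMA, ILR3, ORG2, LHW, EMB1444 and others) were counted with the same test. Of these, 2 were higher and 5 were lower in CH, against 2.48% and 4.28% of all unigenes tested. The median log2 ratio was −0.29. Among all unigenes with at least 50 reads, 5.11% were higher and 9.26% lower. Names were again split, since EMB1444 comp28902_c0 was higher (514 reads in CH and 83 in CK) and EMB1444 comp36287_c0 was lower (89 in CH and 290 in CK), and ORG2 had a unigene higher (35 in CH and 5 in CK) and a unigene lower (16 in CH and 41 in CK). PIF3 comp37608_c0 was lower, with 693 reads in CH and 1472 in CK, and the deeper PIF3 comp22153_c0 was not called, with 3445 in CH and 1499 in CK (log2 0.60). The deepest ILR3 unigene, comp39493_c0, had 10,646 reads in CH and 4450 in CK, a ratio of 1.58 (1.53 to 1.64). ILR3 comp29962_c0 had 3669 in CH and 2032 in CK, and neither was called. FAMA, also in the stomatal list, had 382 in CH and 326 in CK and was not called. The WD40 and bHLH partners of MYB factors (TTG1, TT8, GLABRA 3) and C1, 7 unigenes, had no call in either direction.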

How the data were processed

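Each of 2 libraries (CH and CK) was paired-end sequenced, and the reads of both were assembled together with Trinity. The authors deposited 1 table per library with a raw expected count per unigene. In the deposited RPKM that count is scaled to the deposited effective length of the unigene and the library total. Short unigenes therefore have a higher RPKM than their full length would give. The deposited TPM was not used. For the mapper and counter, no name was found (not given in the sources used here). The submitters' processing notes name DESeq without a version.

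Expected counts were rounded to whole reads for the Audic-Claverie test, and Benjamini-Hochberg adjustment covered 43,302 unigenes with at least 1 read. The test was also run on simulated Poisson counts, which hold no spread between plants and so cannot show its error rate under such spread. A ratio against 0 reads was set at a floor of 3 reads. Role groups followed the Arabidopsis namesakes. Members and lists were chosen with earlier results of these data known. Text names were every called member with at least 10 reads, every MYC, ATR2, ICE1 and UNE member, the 6 highest in mean RPKM and every name with 3 or more unigenes; other members were named only as examples, some after their values were seen. RAX was dropped from the list of MYB partners because it names MYB factors. As alternatives, edgeR's exact test (coefficient of variation set at 0.2 or 0.4) and the exact binomial test were run, with TMM and median-of-ratios scaling, read filters, a 4-fold threshold, an adjusted p of 0.001, pseudocounts of 0.1 and 1, and other member definitions. Python 3.11.15, numpy 2.4.6, pandas 2.3.3, scipy 1.17.1, matplotlib 3.10.9, R 4.3.3 and edgeR 4.0.16 were used.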

Additional observations from a re-analysis of the deposited data

How the results depend on the processing

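The count of 4 bHLH unigenes higher in CH fell to 1 with edgeR's exact test at an assumed coefficient of variation of 0.4, to 1 with at least 10 reads in each library, and to 1 with at least 4 CK reads, the last chosen after seeing the data. In the read filters ATR2, bHLH30 and bHLH120 were no longer tested. The count of 11 lower in CH was 6 with a 4-fold threshold, 5 at a coefficient of variation of 0.2 and 0 at 0.4, where 7 were lower 2-fold at an unadjusted p below 0.05. All other alternatives gave 3 to 4 higher and 9 to 13 lower, and the median log2 ratio stayed between −0.15 and −0.05. Near the threshold, bHLH35 was lost with median-of-ratios scaling and bHLH71 with a pseudocount of 1. With at least 4 CK reads 2 lower members were gained, 1 of them MYC4 comp695810_c0 with 0 reads in CH and 6 in CK (Audic-Claverie adjusted p = 0.00879, against 0.015 over all unigenes tested). At 0.2 the calls kept were ATR2, bHLH30 and bHLH120 (higher) and bHLH93, bHLH78, bHLH62, bHLH148 and bHLH57 (lower), and over all unigenes 495 were higher and 579 lower. Only ATR2, of 15 called members, was called under every alternative that could test it. The summed CH/CK ratio of 0.891 was 0.924 with TMM, 0.94 with median of ratios and 1.01, the other side of 1, without comp37869_c3, chosen after seeing the data. No paired analysis was possible because each group has 1 library. The true spread between plants is unknown, and unigenes of the same name may be pieces of a single gene.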
